A study of Mus musculus with 6 samples.

Results

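This account concerns the histone messages of mouse muscle stem cells, the cells that lie on the muscle fibre and repair it after injury. Members were the rows of the count table whose symbol begins with Hist1h to Hist4h or H2af, or is H3f3a, H3f3b, H1f0 or H1fx, leaving out symbols marked -ps. They numbered 83 of 55376 genes, of which 69 were genes of the replication-dependent type (symbols Hist1h to Hist4h) and 14 were histone variants. RNA came from sorted muscle stem cells of C57BL/6 mice aged 3 months, with no other genotype or treatment given for any group. There were 3 groups of 2 libraries. CPEB4 RIP is RNA recovered with an antibody to CPEB4, IgG RIP is RNA recovered with a nonspecific antibody, and input is total RNA. RIP, RNA immunoprecipitation, pulls down a protein together with the RNA it holds. Libraries were made by SMART-seq2, a full-length method that primes cDNA on poly(A) tails. The series calls the CPEB4 libraries biological replicates and names no animals or pools, so each p-value reflects only how far these libraries differ, which may in part be technical variation. In these bulk libraries, fewer cells of a type and less RNA per cell cannot be told apart.

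Replication-dependent histone genes supply the bulk of histone protein during DNA synthesis. Their messages end in a stem-loop bound by the protein SLBP instead of a poly(A) tail, although several of them are known to be made with a tail as well outside S phase. Histone variants are transcribed through the cell cycle from ordinary genes and their messages carry poly(A) tails; H2afx is known to make both kinds of message. CPEB4 belongs to a family of RNA-binding proteins that recognise a U-rich element near the 3′ end of messages and regulate their tail length and translation.

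Assigned counts per library ran from 9018323 to 20843042. The replicates of IgG RIP lay farther apart (chi-square per degree of freedom of 28.1 over tested genes) than those of input (14.7) or CPEB4 RIP (8.03). Stem cell markers were abundant: Pax7, a defining transcription factor of the lineage, stood between 151 and 290 CPM (counts scaled to a common library size of 1000000, with sizes adjusted by the TMM method), and Myf5 between 1172 and 4794 CPM. Germ cell markers, checked because some histone genes are made in testis, summed to at most 1.64 CPM over 6 genes in any library, and 0 of the 6 passed the low-count filter. Summed levels of 6 erythroid markers were 328 and 658 CPM in CPEB4 RIP against 88.0 to 179 CPM in the other 4 libraries. Those of 6 myofibre markers were 185 and 237 CPM against 108 to 171 CPM, and those of 6 fibro-adipogenic markers 1526 and 2010 CPM against 643 to 1366 CPM. Over IgG RIP 3 of 5 erythroid, 3 of 6 myofibre and 1 of 6 fibro-adipogenic markers tested were higher in edgeR, and over input 3, 3 and 3. Over all genes tested 4.79% and 8% were higher in these comparisons. Of 6 endothelial markers tested 1 and 2 were higher, with 1 lower over input, and of 6 leukocyte markers 1 and 1. Summed levels of 7 leukocyte markers were 30.1 and 50.4 CPM in CPEB4 RIP against 22.3 to 24.9 CPM elsewhere. Of 10 muscle stem cell markers 1 was higher and 1 lower over IgG RIP, and 3 and 2 over input. Their summed levels were 62302 and 68025 CPM in CPEB4 RIP against 45375 to 61692 CPM in the other 4 libraries. Those of the 6 endothelial markers were 522 and 365 CPM against 264 to 366 CPM. The part of cells other than muscle stem cells in the histone results was not tested.

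The replication-dependent genes are packed in clusters, so neighbours can be compared. By symbol or synonym, 81 of the 83 members matched 1 gene of RefSeq on GRCm38, the mm10 assembly used for the counts. Of the 68 matched replication-dependent genes, 55 lay on chromosome 13 and 10 on chromosome 3. The 13 matched variants were spread over 9 chromosomes. RefSeq marks 3 of the matched members as pseudogenes, namely Hist1h2aj, Hist1h2al and H2afy3. Many H2A and H2B genes stand side by side with a short stretch between them. There were 11 such neighbours at most 250 bases apart. In the pair Hist1h2ac and Hist1h2bc, 2 genes with 239 bases between their annotated ends had 44 and 3519 counts over the 6 libraries. No other gene of the 11 pairs had more than 19. Of the 4 stretches that hold an octamer, that between the pseudogene Hist1h2aj and Hist1h2bm (0 and 15 counts) is not shown. The other 3 are shown, each of them DNA that both neighbours share. Hist1h2bc is the one abundant message among them. Each stretch shown is the plus strand of chromosome 13, 5′ to 3′, from RefSeq promoters on GRCm38. Capitals mark ATTTGCAT (the octamer of H2B promoters), CCAAT and TATAAA on either strand.
Hist1h2ac and Hist1h2bc (chr13:23683960-23684198; 44 and 3519 counts): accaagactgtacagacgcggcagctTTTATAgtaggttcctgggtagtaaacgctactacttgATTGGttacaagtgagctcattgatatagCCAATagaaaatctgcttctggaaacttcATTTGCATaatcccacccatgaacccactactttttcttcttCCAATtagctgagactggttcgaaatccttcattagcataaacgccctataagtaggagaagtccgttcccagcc
Hist1h2ae and Hist1h2bg (chr13:23571221-23571399; 16 and 6 counts): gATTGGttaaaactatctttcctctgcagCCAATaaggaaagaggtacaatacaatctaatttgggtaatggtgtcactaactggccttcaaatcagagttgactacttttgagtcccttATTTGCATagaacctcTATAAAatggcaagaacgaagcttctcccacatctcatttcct
Hist1h2ah and Hist1h2bk (chr13:22035644-22035820; 1 and 1 counts): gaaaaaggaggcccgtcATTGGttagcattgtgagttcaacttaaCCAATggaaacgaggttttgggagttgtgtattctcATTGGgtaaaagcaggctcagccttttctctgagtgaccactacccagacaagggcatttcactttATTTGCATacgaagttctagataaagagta

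The counts beside these 3 stretches, which were picked for their octamer, differ widely. The octamer was in 4 of the 11 stretches, CCAAT in all 11 and TATAAA in 4. In the 250 bases before the annotated start, the octamer was found for 13 of 61 replication-dependent genes with a RefSeq promoter (21.3%), for 1 of 11 variants (9.09%) and for 1.61% of 27025 promoters. Its 13 holders were 7 H2A genes and 6 H2B genes, some of which share the same DNA. TATAAA was found for 29 of the 61 (47.5%), for 1 of the 11 variants and for 13% of all promoters. CCAAT was found for 50 of the 61 (82%), for 7 of the 11 (63.6%) and for 34.5% of all promoters. Hist1h2bc and H2afx had no promoter in the set used and are not in these shares. The stretch shown for Hist1h2bc comes from the promoter of Hist1h2ac.

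Variant messages outnumbered replication-dependent ones in the counts of every library. The libraries were primed on poly(A) tails, so these ratios compare captured messages and not all histone messages of the cells. The 14 variant genes had 605620 counts in all and the 69 replication-dependent genes 5642, a ratio of 107 to 1. By library the ratio of counts was 89.6 and 96.8 in CPEB4 RIP, 95.3 and 131 in the IgG libraries, and 103 and 143 in input. Replication-dependent genes are short, and FPKM, the authors' own values of fragments per length and depth, takes this into account. On summed FPKM the ratio was 36.5 and 39.5 in CPEB4 RIP, 39.3 and 51.7 in the IgG libraries, and 42.3 and 59.3 in input. Both CPEB4 RIP libraries lay below input on either scale, while CPEB4 RIP and IgG RIP overlapped on both.

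**Figure D1:**
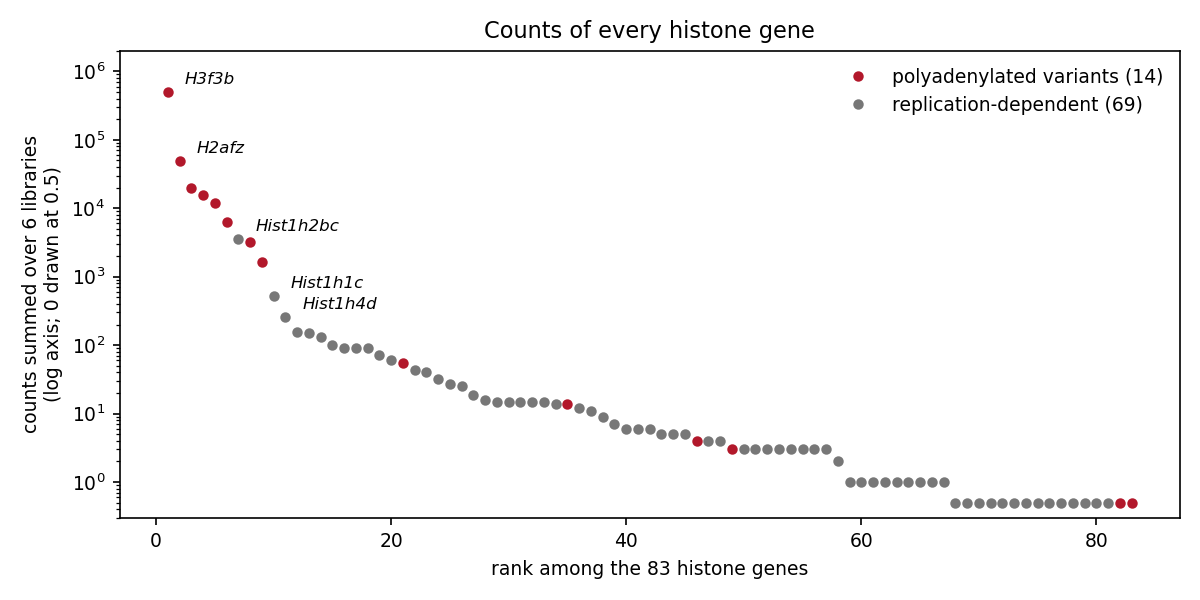
Counts summed over the 6 libraries (log axis) of each of the 83 histone genes, ranked from highest to lowest; red points are variants, grey points replication-dependent genes, and genes with 0 counts are drawn at 0.5. Variants take the first 6 ranks, and Hist1h2bc, with 3519 counts, is the highest replication-dependent gene.

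Within each class a few genes held most of the counts. H3f3b, a gene for the H3.3 variant that is deposited outside replication, held 82.3% of the variant counts, and with H2afz and H2afv the share was 93.6%. Hist1h2bc, an H2B gene, held 62.4% of the replication-dependent counts, and the linker histone gene Hist1h1c a further 9.13%. By protein, the 18 H2B genes had 3715 counts, the 13 H4 genes 838, the 6 H1 genes 696, the 20 H2A genes 252 and the 12 H3 genes 141. Without Hist1h2bc and Hist1h1c the remaining 67 genes had 1608 counts in all. Of the 69 genes, 14 had no count in any library and 17 reached 10 counts in at least 1 library. A gene with 0 counts in a library may have a level of up to 0.158 to 0.320 CPM there, the value of 3 counts, which covers counting error only. Many replication-dependent genes are near-identical to each other, and the labels do not say what was done with reads that match several of them, so single low genes are uncertain.

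Hist1h2bc lies on chromosome 13, 23684199 to 23692480, and its 8282-base span holds 2 RefSeq transcripts, while the median span of the 68 matched genes is 492.5 bases. Spans over 1000 bases occurred in 7 of them, and the other 6 had at most 91 counts each. Longer spans than that of Hist1h2bc were those of Hist1h2be (37455 bases, 3 transcripts, 91 counts) and Hist1h2bp (14079 bases, 2 transcripts, 6 counts). Hist1h1c, second in count, spans 725 bases (23738807 to 23739531).

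A filter on low counts, which asks for about 10 counts in at least 2 libraries, kept 22 members, 9 of 14 variants and 13 of 69 replication-dependent genes. Of the 56 replication-dependent genes it removed, 42 had some counts, at most 44 in all (Hist1h2ac) and with a median of 5. The 5 variants removed were H1fx (4 counts), H2afy3 (14), H2afb3 (3), and H2afb1 and H2afb2 with none. Where a member passed through only 1 group, a difference is part of why it passed, so medians over the 22 describe them and support nothing.

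**Figure D2:**
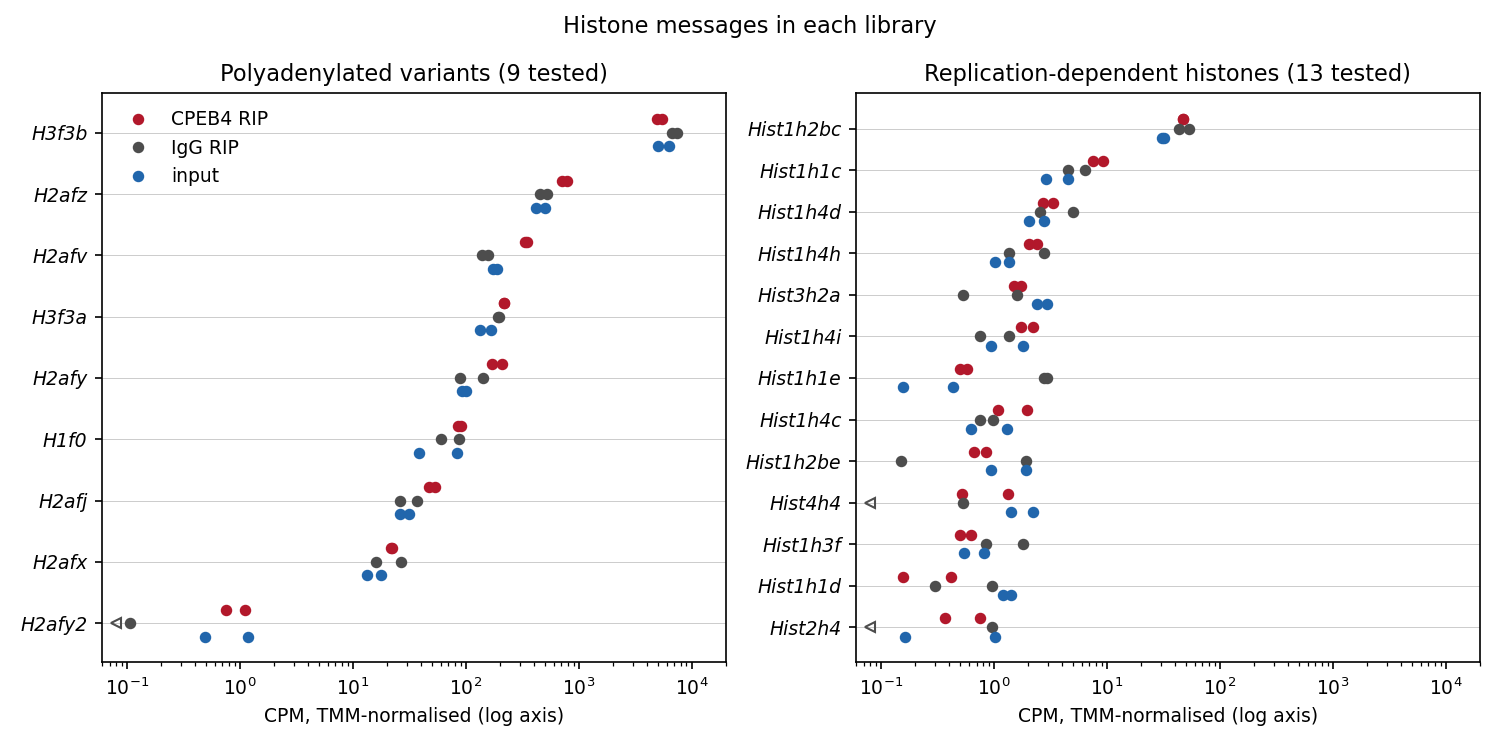
CPM (TMM-normalised, log axis) of the 22 histone genes kept by the low-count filter, 1 point per library, red for CPEB4 RIP, dark grey for IgG RIP and blue for input; open triangles mark 0 counts. H2afv and H2afz lie to the right in both CPEB4 RIP libraries, H3f3b lies to the right in IgG RIP, and most replication-dependent genes lie below 4 CPM.

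Setting CPEB4 RIP against IgG RIP asks which messages came down with CPEB4 beyond what an unrelated antibody brings. Among histones, 1 of 9 variants rose (H2afv), 0 fell, and 0 of 13 replication-dependent genes passed the test in either direction. Over all 18054 genes tested, 4.79% were called higher and 3.42% lower (8.21% in all), so 1 of 22 members is near the background. The test is edgeR's quasi-likelihood test over all 6 libraries with Benjamini-Hochberg adjustment, called at an adjusted p of 0.05. At an unadjusted p of 0.05, 7 of the 22 members passed, beside 4838 of the 18054 genes, a similar share. By class these were 6 of 9 variants, with H3f3b lower, and 1 of 13 replication-dependent genes, Hist1h1e, which was lower. Without IgG RIP replicate 1, 9 histones were called and without replicate 2, 8, beside 7710 and 7405 genes in all. The median log2 fold change was 0.62 over the variants tested, 0.11 over the replication-dependent genes tested and -0.07 over all genes tested.

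The H2A.Z genes gave the clearest values. H2A.Z is an H2A variant placed at promoters and enhancers, and H2afv and H2afz encode its near-identical forms. H2afv (chromosome 11, 6427226 to 6444511) stood at 335 and 346 CPM in CPEB4 RIP, 139 and 158 in the IgG libraries, and 174 and 188 in input. Its CPEB4 RIP libraries lie above the other 4. The message rose 2.29-fold over IgG RIP, or by 1.19 on the log2 scale (SE 0.15), with an adjusted p of 0.00862 in edgeR. Without CPEB4 RIP replicate 2 it was 1.22 with an adjusted p of 0.160, and with gene length as an offset 0.97 with 0.110; no gene at all was called under either of these 2 settings. H2afz (chromosome 3, 137864487 to 137866922) stood at 716 and 782 CPM in CPEB4 RIP, 451 and 524 in the IgG libraries, and 416 and 507 in input. CPEB4 RIP lay above the other 4 libraries, and the log2 fold over IgG RIP was 0.62 (SE 0.16) with an adjusted p of 0.0544, which did not pass. Under 13 of 17 other settings it passed.

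The other variants did not pass over IgG RIP. H2afy encodes macroH2A1, an H2A variant with a large extra domain. It stood at 171 and 209 CPM in CPEB4 RIP, 88.5 and 143 in the IgG libraries, and 92.2 and 101 in input. Its log2 fold over IgG RIP was 0.71 (SE 0.24, adjusted p = 0.109). H2afj, an H2A variant, stood at 47.6 and 53.8 CPM in CPEB4 RIP against 26.1 and 36.6 in the IgG libraries and 25.9 and 31.5 in input, with a log2 fold over IgG RIP of 0.69 (SE 0.24, adjusted p = 0.114). Both genes had CPEB4 RIP libraries above all others without passing the test over IgG RIP. Under 17 other settings H2afy passed it in 5 and H2afj in 2. H2afx, whose product marks DNA breaks when phosphorylated, stood at 22.3 and 21.6 CPM in CPEB4 RIP, 26.8 and 16.1 in the IgG libraries, and 17.7 and 13.3 in input, so that IgG RIP enclosed the CPEB4 RIP values. H1f0, a linker histone of nondividing cells, stood at 85.0 and 90.1 CPM in CPEB4 RIP, 60.8 and 86.7 in the IgG libraries, and 38.7 and 82.9 in input, with input replicates far apart. H2afy2, the macroH2A2 gene, was scarce, with 9 and 21 counts in CPEB4 RIP, 1 and 0 in the IgG libraries, and 9 and 15 in input. It did not pass (adjusted p = 0.132), and its IgG RIP counts are too few for a fold.

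The genes for H3.3 differed from each other in these libraries although they encode the same protein. H3f3b (chromosome 11, 116021961 to 116026039), the most abundant histone message, stood at 4951 and 5508 CPM in CPEB4 RIP, 6703 and 7364 in the IgG libraries, and 5064 and 6275 in input. CPEB4 RIP lay below IgG RIP without overlap and overlapped input, with a log2 fold over IgG RIP of -0.43 (SE 0.14, adjusted p = 0.108). Under 4 of 17 other settings it passed as lower. H3f3a (chromosome 1, 180802560 to 180813605) stood at 217 and 218 CPM in CPEB4 RIP, 194 and 195 in the IgG libraries, and 133 and 168 in input, with a log2 fold over IgG RIP of 0.16 (SE 0.16, adjusted p = 0.551). The ratio of their counts needs no scaling between libraries. H3f3b over H3f3a was 22.8 and 25.3 in CPEB4 RIP, 34.5 and 37.7 in the IgG libraries, and 38.0 and 37.4 in input. Both CPEB4 RIP libraries lay below the other 4. The count table also lists pseudogenes of H3f3a, and reads shared with them could not be told apart here.

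The same ratio for H2A.Z, H2afz over H2afv, was 2.14 and 2.26 in CPEB4 RIP, 3.24 and 3.31 in the IgG libraries, and 2.40 and 2.69 in input. CPEB4 RIP was again lowest, here with input close to it and IgG RIP apart. For these ratios 2 libraries against 2 cannot give an exact two-sided permutation p below 0.33, and no test was run.

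**Figure D3:**
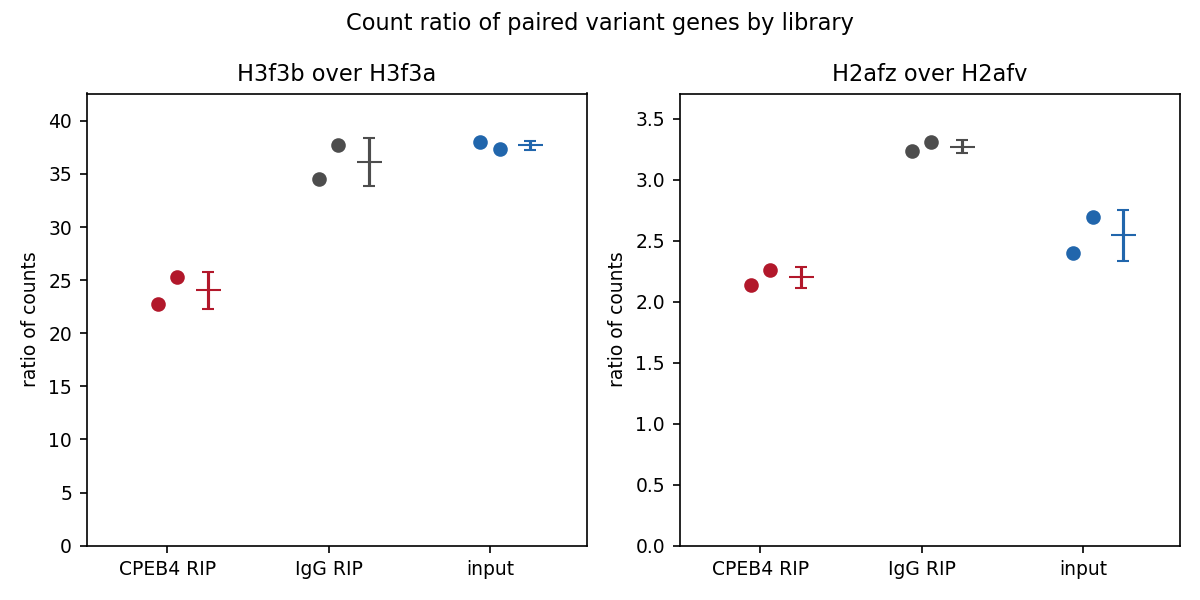
Ratio of raw counts of H3f3b over H3f3a (left) and of H2afz over H2afv (right), with 1 point per library and the mean ± SD of each group (n = 2) beside it. The H3f3b ratio is 24.0 ± 1.78 in CPEB4 RIP, 36.1 ± 2.29 in the IgG libraries and 37.7 ± 0.446 in input.

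None of the 13 replication-dependent genes tested passed over IgG RIP in edgeR. Hist1h2bc stood at 46.8 and 47.0 CPM in CPEB4 RIP, 53.2 and 43.5 in the IgG libraries, and 32.3 and 30.4 in input. IgG RIP encloses CPEB4 RIP, and input is below both. Its log2 fold over IgG RIP was -0.04 (SE 0.19, adjusted p = 0.909). Hist1h1c, the gene for linker histone H1.2, stood at 7.54 and 9.30 CPM in CPEB4 RIP, 4.48 and 6.42 in the IgG libraries, and 4.51 and 2.89 in input, with a log2 fold over IgG RIP of 0.62 (SE 0.43, adjusted p = 0.384). On FPKM, where lengths are taken into account, Hist1h2bc stood at 29.2 ± 0.472 in CPEB4 RIP, 28.2 ± 2.98 in the IgG libraries and 19.5 ± 1.07 in input (SD, n = 2 each). That is a level near that of H1f0 (30.7 ± 0.670, 24.4 ± 6.92 and 21.1 ± 10.6 in the same order) and above that of H2afj (19.9 ± 1.35, 11.6 ± 3.17 and 11.2 ± 1.40). Hist1h1c stood at 3.88 ± 0.499 FPKM in CPEB4 RIP, 2.37 ± 0.682 in the IgG libraries and 1.71 ± 0.550 in input.

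Below these, levels were a few CPM. The H4 gene Hist1h4d had 33 and 63 counts in CPEB4 RIP, 47 and 34 in the IgG libraries, and 51 and 26 in input, or 2.73 and 3.31, 5.01 and 2.57, and 2.77 and 2.03 CPM. Hist1h4h stood at 2.40 and 2.05 CPM in CPEB4 RIP, 2.77 and 1.36 in the IgG libraries, and 1.36 and 1.01 in input. Both H4 genes overlapped between CPEB4 RIP and IgG RIP. Hist1h4i had 21 and 42 counts in CPEB4 RIP, 7 and 18 in the IgG libraries, and 33 and 12 in input, and Hist1h4c had 13 and 37, 7 and 13, and 24 and 8. Hist3h2a, an H2A gene outside the main clusters, had 18 and 33 counts in CPEB4 RIP, 15 and 7 in the IgG libraries, and 44 and 38 in input. The SE of these 5 over IgG RIP was 0.56 to 0.82 on the log2 scale, and none of them passed the test. Without IgG RIP replicate 1 Hist3h2a was called. The linker histone gene Hist1h1e had 6 and 11 counts in CPEB4 RIP, 26 and 39 in the IgG libraries, and 8 and 2 in input. Its log2 fold over IgG RIP was -2.39 (SE 0.82, adjusted p = 0.116 in edgeR), and IgG RIP stood above both other groups. Hist1h1e passed the low-count filter through IgG RIP, so these values support nothing. The remaining 5 genes tested (Hist1h2be, Hist4h4, Hist1h3f, Hist1h1d and Hist2h4) had a mean of at most 1.07 CPM and adjusted p of 0.418 to 0.941 over IgG RIP.

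Over input, the comparison that sets recovered RNA beside total RNA, 3 variants rose: H2afv, H2afz and H2afy. Of the 9 variants 0 fell, and 0 of 13 replication-dependent genes passed. Among all genes tested 8% were higher and 4.7% lower (12.7% in all). H2afv was at a log2 fold of 0.91 (SE 0.15, adjusted p = 0.00868), H2afz at 0.70 (SE 0.16, adjusted p = 0.0285) and H2afy (chromosome 13, 56073622 to 56135626) at 0.98 (SE 0.24, adjusted p = 0.0375). H2afj followed at 0.82 (adjusted p = 0.0613), H3f3a at 0.53 (0.0710), H1f0 at 0.53 (0.358) and H2afx at 0.50 (0.33), while H3f3b stood at -0.12 (0.633). Of the replication-dependent genes, Hist1h2bc was at 0.58 (SE 0.19, adjusted p = 0.0924) and Hist1h1c at 1.18 (SE 0.43, adjusted p = 0.122), with no overlap between the libraries. In this comparison the medians were 0.53 over the variants tested, 0.33 over the replication-dependent genes tested and -0.06 over all genes. These comparisons share the CPEB4 RIP libraries. With only the 4 libraries compared, Hist1h2bc and Hist1h1c passed over input as higher and Hist1h1d as lower, beside 7340 of 16966 genes called in all. Under 17 other settings H2afv passed over input in 14, H2afz in 12 and H2afy in 9. H2afy did not pass over input with limma on FPKM, with or without the filter. All 3 calls were lost with the gene length offset (adjusted p of 0.0889 for H2afv, 0.171 for H2afz and 0.0971 for H2afy), without CPEB4 RIP replicate 2 (0.138, 0.290 and 0.306) and without input replicate 1 (0.0533, 0.125 and 0.171). H2afz and H2afy were also lost without CPEB4 RIP replicate 1 (0.0776 and 0.0684) and H2afy without input replicate 2 (0.128), the latter leaving 2 calls. Without IgG RIP replicate 1 or 2, 11 histones passed in place of 3, beside 7966 and 7942 genes in all.

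**Figure D4:**
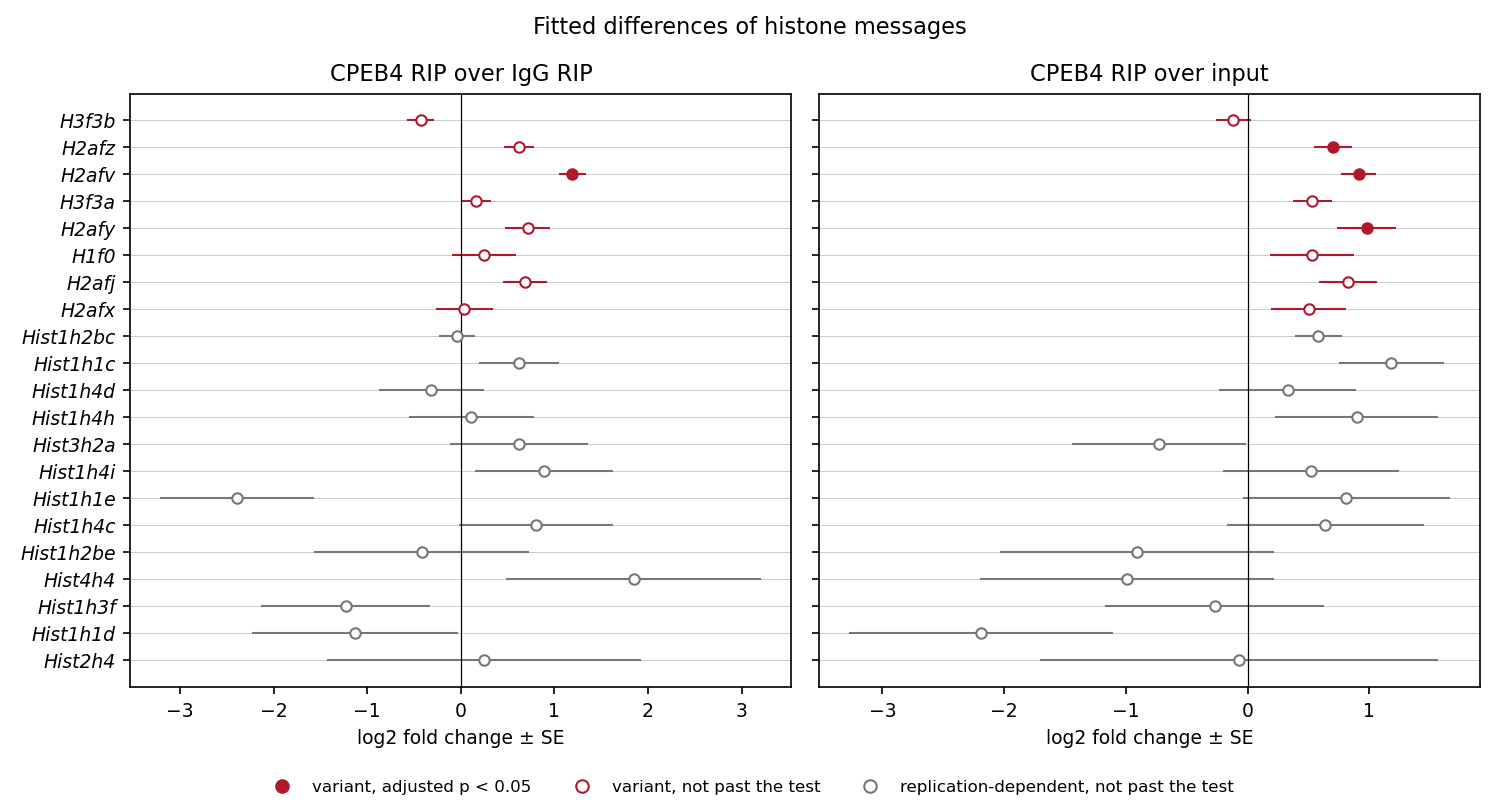
Log2 fold change ± SE from edgeR of 21 histone genes in CPEB4 RIP over IgG RIP (left) and over input (right); red are variants, grey are replication-dependent genes, and filled points passed an adjusted p of 0.05. H2afv is filled in both panels, H2afz and H2afy in the right one; H2afy2 is left out, since its IgG RIP counts were 1 and 0.

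IgG RIP set against input shows what the nonspecific antibody alone recovered. Of the 22 members tested 0 passed, as did 0% of all genes in edgeR; at an unadjusted p of 0.05 there were 2550 genes and 3 histones, and DESeq2 called 706 genes and 0 histones. The 3 were Hist1h1e at a log2 fold of 3.20 (SE 0.86, adjusted p = 0.212), Hist1h2bc at 0.62 (SE 0.19, adjusted p = 0.233) and H2afy2 with its 1 and 0 counts (adjusted p = 0.309). Hist1h1e passed the low-count filter through IgG RIP, so its values in this comparison support nothing. Hist1h2bc was thus 0.62 above input here and 0.58 above it in CPEB4 RIP, with the same input libraries in both. H2afv had a log2 fold of -0.28 (adjusted p = 0.434) and H2afz of 0.08 (adjusted p = 0.891). Without IgG RIP replicate 1, the median log2 fold was 0.23 over the variants tested and -0.15 over the replication-dependent genes tested. Without replicate 2 these medians were -0.10 and 0.28.

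CPEB4 RIP lay wholly above IgG RIP for 6 of 9 variants and wholly below for 1, H3f3b, against 29.4% above and 25.5% below over all genes tested. For the 13 replication-dependent genes the numbers were 3 above and 2 below. Over input 7 of 9 variants lay above and 0 below (34.4% and 37.6% over all genes), and of the replication-dependent genes 4 lay above and 4 below. Between IgG RIP and input the variants had 2 above and 2 below and the replication-dependent genes 3 and 3 (21.4% and 20.7% over all genes).

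The summed level of a class depended on its largest member. Replication-dependent genes summed to 73.1 and 74.7 CPM in CPEB4 RIP, 80.7 and 65.0 in the IgG libraries, and 57.8 and 51.4 in input. Without Hist1h2bc the sums were 26.3 and 27.6, 27.5 and 21.5, and 25.5 and 20.9 CPM, with CPEB4 RIP overlapping IgG RIP and lying above input. Variants summed to 6546 and 7230 CPM in CPEB4 RIP, 7690 and 8524 in the IgG libraries, and 5962 and 7368 in input. Without H3f3b they summed to 1595 and 1721 CPM in CPEB4 RIP, 987 and 1159 in the IgG libraries, and 898 and 1093 in input. CPEB4 RIP was thus below IgG RIP with H3f3b and above it without. Which of CPEB4 RIP and input was higher for the whole variant sum changed with the scaling: the log2 ratio was -0.16 on the share of counts, 0.054 with TMM factors and 0.11 on FPKM.

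Of 30 genes for histone message processing and transcription, 1 was higher and 6 lower over IgG RIP, and 0 and 3 over input, with medians of -0.20 and -0.30. Over all genes tested the shares were 4.79% higher and 3.42% lower over IgG RIP, and 8% and 4.7% over input. Slbp, which encodes the stem-loop binding protein, stood at 76.7 and 88.8 CPM in CPEB4 RIP, 137 and 178 in the IgG libraries, and 135 and 172 in input. It fell over IgG RIP by 0.93 on the log2 scale (SE 0.20, adjusted p = 0.0355) and over input by 0.89 (adjusted p = 0.0280). The nuclear exonuclease gene Xrn2 (-1.27, adjusted p = 0.0145), Hinfp (-1.66, 0.0296), a transcription factor of H4 genes, and Casp8ap2 (-1.13, 0.0320), needed for histone message processing, were lower over IgG RIP. Lsm10, a subunit of the U7 particle that cuts histone messages, was the 1 gene that rose, at 1.31 (adjusted p = 0.0371); it was singled out after its value was seen. Over input Cpsf3, the endonuclease of the same reaction, fell by 1.52 (adjusted p = 0.00598), with Xrn2 at -1.11 (0.0121).

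Of 30 histone chaperones and deposition factors, 0 were higher and 6 lower over IgG RIP, and 0 and 6 over input, with medians of -0.31 and -0.03 (all genes, 4.79% and 3.42%, and 8% and 4.7%). The FACT subunit Supt16 was at -1.31 (adjusted p = 0.0132) over IgG RIP and -1.24 (0.00808) over input. Anp32e, a chaperone that removes H2A.Z, was at -0.81 (adjusted p = 0.0209) over IgG RIP but at 0.03 (0.91) over input. It stood at 125 and 144 CPM in CPEB4 RIP, 239 and 233 in the IgG libraries, and 135 and 128 in input. The H3.3 deposition factor Atrx was at -1.01 (adjusted p = 0.0228) over IgG RIP and -0.94 (0.0189) over input. Over input, Rbbp7 stood at -1.03 (adjusted p = 0.00981) and Nap1l4 at -0.76 (0.0150). Over IgG RIP these 2 genes were at -0.70 (0.0476) and -0.59 (0.0471). Of 22 S phase genes 0 were higher and 3 lower in each of these comparisons, where 3.42% and 4.7% of all genes were lower: Slbp, Rrm1 (-1.19, adjusted p = 0.0420) and Top2a (-1.77, 0.0499) over IgG RIP, and Rrm1 (-1.58, 0.0118), Slbp and Mcm4 (-1.73, 0.0364) over input. Their summed level was 380 and 386 CPM in CPEB4 RIP, 599 and 620 in the IgG libraries, and 604 and 636 in input. Replication-dependent histone sums were higher in CPEB4 RIP than in input, but without Hist1h2bc and Hist1h1c they were 18.7 and 18.3 CPM in CPEB4 RIP against 21.0 and 18.0 in input, which overlap. Of 10 histone genes of the table outside the rule, 5 were tested and 0 passed in either of these comparisons.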

How the data were processed

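The authors aligned reads with HISAT2 to mm10 and counted them per gene with featureCounts, per the submitters' processing notes; versions, annotation, strandedness and handling of multi-mapped reads are unstated. Raw counts for every gene and library were deposited as a table. The deposited FPKM values were made by the authors, with no tool or library total named. The 83 members and the gene lists were chosen with earlier results of these data known.

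Starting from the counts of 55376 genes, edgeR 4.0.16 (R 4.3.3) was used: filterByExpr (minimum count 10, minimum total 15) kept 18054 genes, scaling was TMM, and 1 quasi-likelihood model of the 3 groups, with no covariate, took in the 6 libraries (3 residual degrees of freedom). Tests were two-sided and Benjamini-Hochberg adjustment covered the whole set of tested genes. SE is the absolute log2 fold change divided by the square root of F. All members kept by the filter could be named; of each list, the up to 3 genes with the smallest p past the test in each comparison with CPEB4 RIP were named, and Lsm10 was added after its value was seen. Alternatives were DESeq2 1.42.0, other scaling and filters, a replicate block, limma 3.58.1 on log2(FPKM + pseudocount) with pseudocounts of 1 and 0.1 and genes of at least 0.5 FPKM in 2 libraries, a gene length offset (loess, span 0.3; length from counts over FPKM) and each library left out. The steps were tested on simulated data. The limit given for a count of 0 covers counting error only, since SMART-seq2 reads carry no molecular identifiers.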

Additional observations from a re-analysis of the deposited data

How the results depend on the processing

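The number of histone genes past the test over IgG RIP was 1, and it was 2 with DESeq2 size factors, with only the 4 libraries compared and with limma on log2(FPKM + 1) or log2(FPKM + 0.1). It was 3 with library size alone, with no filter or with a mean count of at least 20, 4 with the DESeq2 Wald test and 0 with the gene length offset; leaving out 1 library gave 0 to 9. Over input the number was 3, against 5 with no filter or the DESeq2 Wald test, 8 with only the 4 libraries compared, 1 with limma on log2(FPKM + 1) with no filter, 0 with the gene length offset and 0 to 11 with 1 library left out. For IgG RIP over input the number of histones past the test was 0. In each comparison it also changed when some single libraries were left out. With the replicate number as a block it was 4 over IgG RIP, 5 over input and 0 for IgG RIP over input. Genes called in all were then 1850, 2615 and 25 in the same order. Same-numbered libraries shared little of their deviation (r of -0.02 to 0.13 across 18054 genes), so the numbers were not taken to pair the libraries. H2afv kept its direction under all 17 alternatives in both comparisons with CPEB4 RIP and passed under 15 over IgG RIP and 14 over input.

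The variants' median was 0.62 over IgG RIP (0.60 to 0.89 with 1 library left out). Over input it was 0.53, with 0.34 by library size alone, 0.73 with no filter, 0.70 with the length offset and 0.58 to 0.93 with 1 library left out. For IgG RIP over input it was 0.26 (-0.12 to 0.28). The replication-dependent median over IgG RIP was 0.11, with 0.70 with no filter, 0.47 by log2(FPKM + 0.1), -0.29 with the length offset and -0.12 to 0.65 with 1 library left out. Over input it was 0.33 (-0.23 to 0.50), and for IgG RIP over input -0.16, with 0.51 at a mean count of at least 20, 0.23 by log2(FPKM + 1) and -0.15 to 0.68. The sign of this class's median thus changed under some of these settings.

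For summed levels the log2 ratio of variants over IgG RIP was -0.31 on the share of counts, -0.0719 on FPKM, -0.23 with TMM factors and 0.55 without H3f3b. Over input it was -0.16, against 0.11, 0.0537 and 0.53 in the same order, and for IgG RIP over input 0.16, with 0.29 by TMM factors and -0.0208 without H3f3b. For replication-dependent genes over input it was 0.23, against 0.51 on FPKM, 0.44 with TMM factors and 0.0126 without Hist1h2bc, and for IgG RIP over input 0.28, against -0.0566 without Hist1h2bc. Leaving out H3f3b or Hist1h2bc and summing with TMM factors were chosen after seeing the data. Library size alone moved the median of all genes over input from -0.06 to -0.27, and the calls from 1445 higher and 849 lower to 1093 and 1409; over IgG RIP they went from 864 and 618 to 903 and 1026. With the length offset 0 genes were called over IgG RIP, where 3797 had an unadjusted p under 0.05. The cause of these changes was not tested.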
